A study of Mus musculus with 12 samples.

Results

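Pax7 and Dmbx1 encode transcription factors with a paired-type homeodomain, and their promoters are the subject here. The promoter fragments of both genes served as baits in a CaptureC experiment in mouse embryonic stem cells (ESCs), and their contacts were taken as all entries of the interaction table whose bait position is that of Pax7 or Dmbx1 in the list of named baits. This gave 16 contacted regions, 6 of Pax7 and 10 of Dmbx1, of 414 contacts of 24 named baits and of 842 contacts of all 44 baits. Of the 16 contacts, 8 overlap a site where RING1B and PCGF2 both bind (PCGF2 sites below), 4 for each bait, and the remaining 8 are other sites, 2 of Pax7 and 6 of Dmbx1.

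PRC1, a Polycomb repressive complex, ubiquitylates histone H2A as an E3 ligase, and RING1A or RING1B forms its catalytic core with a PCGF protein. Canonical PRC1, which holds PCGF2 or PCGF4 with CBX and PHC proteins, binds chromatin that carries H3K27me3 and can bring distant Polycomb target sites together. In ESCs the CpG island promoters of developmental regulators are classical target sites. Pax7 is a regulator of neural crest and of the satellite cells of muscle, and Dmbx1 acts in the developing brain.

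The 12 samples fell into 4 groups of 3 replicates. PRC1CPM cells carry inactivating substitutions in both alleles of Ring1a, and OHT (tamoxifen) acts through a CRE recombinase to invert an exon of Ring1b, so that catalytically inactive RING1B is made in place of the wild type. They were left untreated or given 800 nM OHT for 72 h. PRC1DEG cells lack Ring1a and have RING1B fused to an auxin-inducible degron. The Control cells have intact PRC1 and the auxin receptor Tir1 without the degron, and both lines were given 0.5 mM auxin for 6 h. Accordingly OHT-treated cells were set against untreated PRC1CPM cells, which already lack RING1A activity, and PRC1DEG cells against Control cells, a different line that keeps RING1A. The number of clones behind each line is not given in the sources used here.

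The deposited table pools the 3 replicates of a group into 1 value. No spread between replicates can therefore be given for any value below, and no test between conditions was made. A contact is a run of neighbouring DpnII fragments, and its level is the mean normalised read count per fragment. Contact levels came out as whole weighted reads at a tolerance of 0.1 for 100% of values, which gives the weighted reads per contact. These are a processed value of the merged replicates and need not equal the reads sequenced. They are called reads below. The 16 contacts rested on 1223 reads in the untreated library and 559 after OHT, and on 1099 in the Control and 467 in the PRC1DEG library. The 95% Wilson intervals below treat weighted reads as counts, so they are approximate, and they cover counting error only. Percentages compare normalised values, so they differ slightly from the ratio of reads.

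Both baits lie on chromosome 4 (GRCm38), 23.9 Mb apart. The Pax7 bait is the 870 bp DpnII fragment at chr4:139832117-139832986, which covers coding sequence and UTR of Pax7 and lies 0.021 kb from a transcription start site (TSS). The Dmbx1 bait is the 425 bp fragment at chr4:115939749-115940173 and contains a Dmbx1 TSS. Both bait fragments overlap a RING1B and PCGF2 site. They were chosen as Polycomb targets, and the CpG density of CpG island promoters can be read in the capture oligonucleotides outside UTRs, which are printed 5′ to 3′ on the + strand with each CpG in capitals.
Pax7 bait, left end (chr4:139832117-139832186): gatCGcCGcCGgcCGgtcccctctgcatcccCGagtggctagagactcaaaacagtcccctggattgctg
Dmbx1 bait, left end (chr4:115939749-115939818): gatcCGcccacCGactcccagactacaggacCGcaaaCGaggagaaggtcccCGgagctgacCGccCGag
Dmbx1 bait, right end (chr4:115940108-115940177): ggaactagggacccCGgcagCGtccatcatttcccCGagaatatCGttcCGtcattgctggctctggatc

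The contacted fragments are shown in the same way. For each contact the 120 bases with most CpGs were taken from the summit fragment outside UTRs, on the + strand, so that both classes were treated alike. The first 5 lie in PCGF2 sites, within or beside Htr6, Nbl1, Gm12830, Foxd2 and Tal1, and the last 2 lie in the other-site contacts nearest to each bait.
Pax7 contact at Htr6 (chr4:139074273-139074392, 11 CpGs): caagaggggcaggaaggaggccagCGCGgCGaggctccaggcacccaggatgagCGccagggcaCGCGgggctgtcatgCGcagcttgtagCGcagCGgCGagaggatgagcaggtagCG
Pax7 contact at Nbl1 (chr4:139092198-139092317, 9 CpGs): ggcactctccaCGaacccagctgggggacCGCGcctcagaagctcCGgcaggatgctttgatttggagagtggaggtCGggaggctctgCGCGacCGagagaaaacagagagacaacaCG
Dmbx1 contact at Gm12830 (chr4:114843407-114843526, 17 CpGs): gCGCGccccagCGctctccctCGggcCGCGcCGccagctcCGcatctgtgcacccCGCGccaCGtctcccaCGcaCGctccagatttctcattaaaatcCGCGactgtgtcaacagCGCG
Dmbx1 contact at Foxd2 (chr4:114902227-114902346, 15 CpGs): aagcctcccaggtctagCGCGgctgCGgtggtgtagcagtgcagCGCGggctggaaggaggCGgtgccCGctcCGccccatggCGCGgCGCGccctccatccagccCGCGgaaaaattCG
Dmbx1 contact at Tal1 (chr4:115056648-115056767, 25 CpGs): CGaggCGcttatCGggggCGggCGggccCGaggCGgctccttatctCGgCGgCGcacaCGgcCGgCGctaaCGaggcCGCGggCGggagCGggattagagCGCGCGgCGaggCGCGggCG
Pax7 other site near Tas1r2 (chr4:139681739-139681858, 3 CpGs): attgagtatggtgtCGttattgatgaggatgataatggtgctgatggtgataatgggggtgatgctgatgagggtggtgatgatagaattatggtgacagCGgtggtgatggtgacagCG
Dmbx1 other site near 6430628N08Rik (chr4:115907802-115907921, 3 CpGs): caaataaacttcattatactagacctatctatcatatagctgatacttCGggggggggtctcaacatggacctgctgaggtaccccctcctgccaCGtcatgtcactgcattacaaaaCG
A stretch could be taken from 7 contacts at PCGF2 sites, with 4 to 25 CpGs, and from 8 at other sites, with 2 to 5. The classes thus overlap, since the stretch from Foxe3, not printed, holds 4. That from the other Nbl1 fragment (chr4:139090861-139090980), also not printed, holds 8. The stretches left out at PCGF2 sites are thus those with the fewest CpGs. The stretch from Tal1 has the most.

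The Pax7 promoter made 4 contacts with PCGF2 sites, all between 740 and 1378 kb away on the side of lower coordinates, and each stood at between 45.5 and 50.4% of its untreated level after OHT. The farthest, at chr4:138454022-138456058, contains the TSS of Camk2n1, which encodes an inhibitor of the kinase CaMKII, and spans 8 fragments. It had 36 weighted reads before OHT against 15 after, and 27 in the Control library against 18 in PRC1DEG. Both perturbed groups had fewer reads than their reference. After OHT 45.5% of the untreated level was left (Wilson interval 25.2 to 82.5%), and in PRC1DEG cells 62.3% of the Control level (34.6 to 112%), an interval that includes no change.

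The other 3 contacts of Pax7 at PCGF2 sites are single fragments that lie between 740 and 758 kb from the bait. The fragment at chr4:139074129-139074617 is coding sequence of Htr6, a serotonin receptor gene, 0.172 kb from a TSS. It had 9 reads before OHT and 4 after, and 16 in the Control library against 9 in PRC1DEG, so that 48.6% (15.9 to 149%) and 52.6% (23.7 to 116%) were left. The fragments at chr4:139090824-139091945 and chr4:139091946-139092472 lie next to each other with 0 bases between them but are separate entries of the table, although nearby fragments were to be merged. They lie in an intron of Nbl1, which encodes a secreted antagonist of bone morphogenetic proteins. The first had 13, 6, 7 and 3 reads in untreated, OHT, Control and PRC1DEG cells, and the second 13, 6, 14 and 8. Summed, they kept 50.4% after OHT (25.8 to 98.7%) and 48.9% in PRC1DEG cells (24.0 to 99.96%). With so few reads, no one of these 3 fragments had an interval that left out 100% in either comparison.

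The Dmbx1 promoter made 4 contacts with PCGF2 sites between 883 and 1096 kb away, and each was lower in both perturbations. Their larger read numbers come from 126 fragments. Per fragment the untreated levels of the 4 contacts, 0.00467 to 0.00918 normalised reads, overlapped with those of Pax7, 0.00502 to 0.0145. Of these regions, 3 hold the TSS of a developmental transcription factor gene. The largest, at chr4:115042116-115070086, spans 66 fragments with the TSS of Tal1, a regulator of blood formation, and reaches the UTR of the neighbouring gene Stil. It had 485 reads before OHT against 205 after, and 464 in the Control library against 140 in PRC1DEG. Thus 46.2% (39.2 to 54.4%) of the untreated level was left after OHT and 28.2% (23.3 to 34.0%) of the Control level in PRC1DEG cells.

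The contact at chr4:114896815-114916516 spans 40 fragments with the TSS of the forkhead gene Foxd2. It had 230 reads before OHT against 70 after, and 227 in the Control library against 48 in PRC1DEG. This left 33.3% (25.5 to 43.4%) after OHT and 19.8% (14.5 to 26.9%) in PRC1DEG cells. The contact at chr4:114922865-114928664, 9 fragments with the TSS of Foxe3, a forkhead gene of the developing lens, begins 6348 bases beyond that of Foxd2. It had 74, 27, 72 and 16 reads in the same order, and kept 39.9% (25.8 to 61.7%) and 20.8% (12.2 to 35.5%). The contact farthest from the bait, at chr4:114841052-114845693, spans 11 fragments over coding sequence and UTR of the predicted gene Gm12830, 19.3 kb from its TSS. It had 46, 14, 37 and 12 reads, and kept 33.3% (18.4 to 60.0%) and 30.3% (16.0 to 57.5%). The intervals of all 4 contacts lay below 100% in both comparisons.

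**Figure D1:**
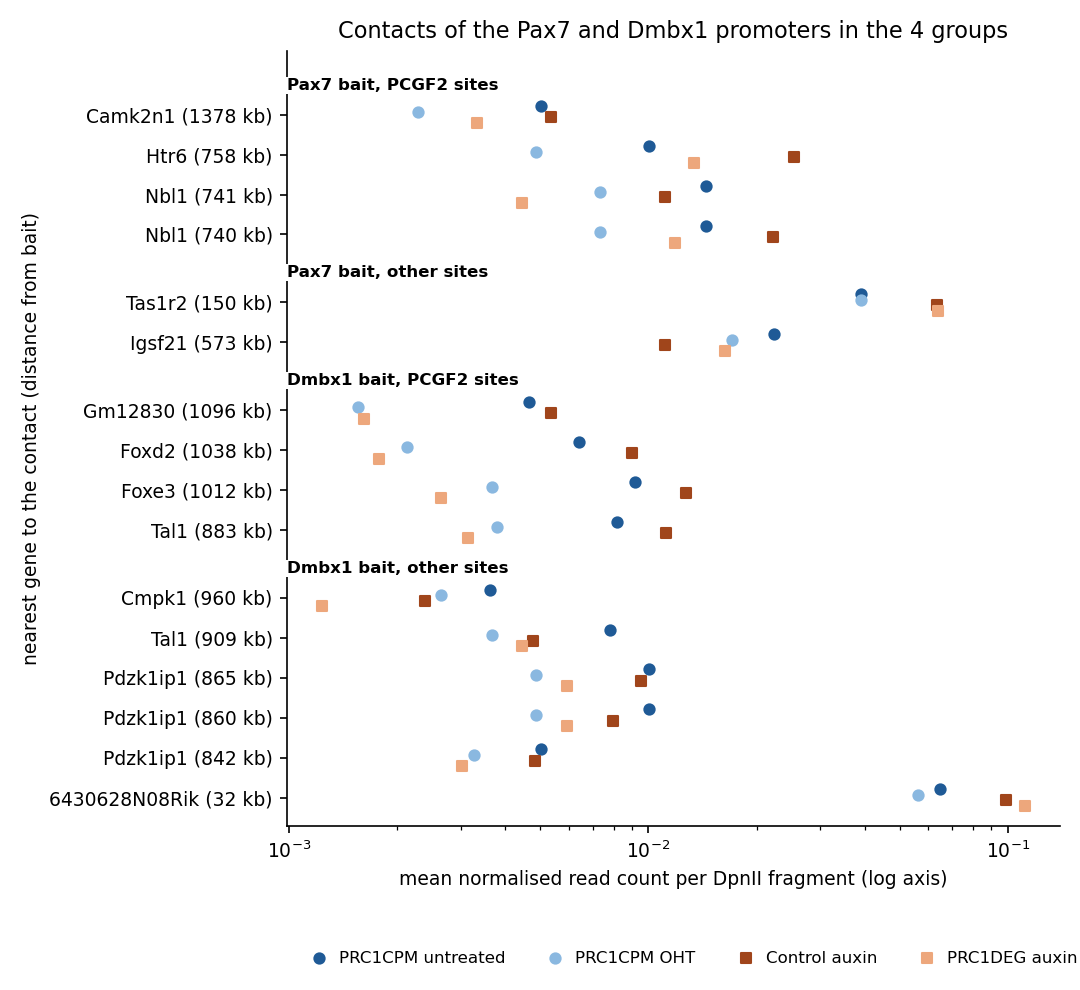
Mean normalised read count per DpnII fragment (log axis) of the 16 contacts of the Pax7 and Dmbx1 baits, with 1 point per group, each pooled from 3 replicates; contacts are named by the gene with the nearest TSS and their distance from the bait. At the 8 PCGF2 sites the OHT and PRC1DEG points lie to the left of their references, whereas the 2 highest contacts, 150 and 32.4 kb from their baits, have each perturbed point close to its reference.

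Among the 8 contacts at PCGF2 sites, all were lower after OHT, as were 93.8% of the 130 contacts of named baits at PCGF2 sites and 75.4% of all 414. In PRC1DEG cells all 8 were lower, against 99.2% of the 130 and 61.4% of the 414. On the log2 scale with a pseudocount, 5 of 8 had a change of -1 or below after OHT (background 46.9% of the 130 and 18.4% of the 414) and 5 of 8 in PRC1DEG cells (76.9 and 26.8%). The interval lay below 0 at 5 of 8 after OHT (56.9 and 22.9%) and at 4 of 8 in PRC1DEG cells (69.2 and 26.1%). With 8 contacts, these counts do not set the baits apart from the other PCGF2 sites.

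Summed over its 4 PCGF2 sites, Pax7 had 71 reads in untreated cells and 31 after OHT, a log2 ratio of -1.07 (-1.67 to -0.46), and 64 in Control and 38 in PRC1DEG cells, a log2 ratio of -0.85 (-1.43 to -0.27). Dmbx1 had 835 and 316 reads, a log2 ratio of -1.27 (-1.46 to -1.09), and 800 and 216 reads, a log2 ratio of -1.99 (-2.20 to -1.77). The medians of the contacts' log2 changes were -0.97 and -0.90 for Pax7 and -1.32 and -1.92 for Dmbx1, beside OHT and PRC1DEG in that order. Except at Tal1, the summits of these contacts reached the CHiCAGO score needed for entry, given below, only in reference libraries. The contacts may thus have entered the table through libraries where they were high, which favours a decrease. The intervals do not cover this.

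After OHT the difference between the baits, Dmbx1 minus Pax7, was -0.21 on the log2 scale with a counting interval from -0.84 to 0.43, so these reads could not separate them. In PRC1DEG cells it was -1.14 (-1.76 to -0.52), with Dmbx1 contacts lower beyond counting error. When each bait was centred on the median change of its own other sites, the difference in PRC1DEG cells was -0.35 and lay outside that interval, and the difference after OHT was 0.39, of the opposite sign. For Dmbx1 the decrease in PRC1DEG cells exceeded that after OHT by 0.71 on the log2 scale, with PRC1DEG minus OHT at -0.71 (-0.9997 to -0.43). For Pax7 the same difference was 0.22 (-0.62 to 1.06), and it was -0.04 when centred on other sites of all named baits and -0.25 on its own. The OHT and auxin data come from separate experiments in different lines, so a difference between perturbations cannot be told apart from one between experiments.

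**Figure D2:**
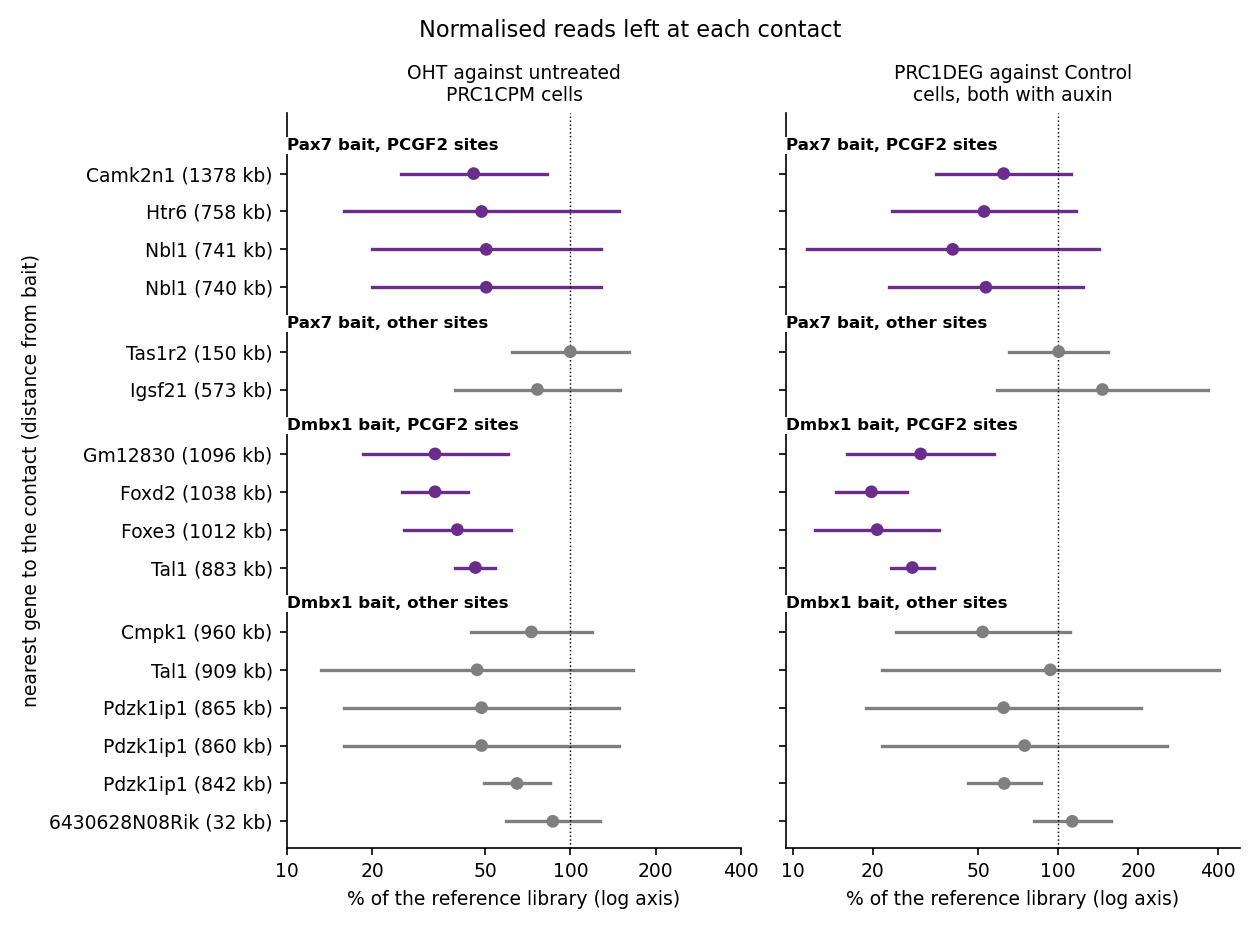
Normalised reads left at each of the 16 contacts as a percentage of the reference library (log axis), for OHT against untreated PRC1CPM cells and PRC1DEG against Control cells; bars are 95% Wilson intervals for counting error, purple marks PCGF2 sites and grey other sites. The 4 Dmbx1 contacts at PCGF2 sites have bars wholly below 100% in both panels, while the Pax7 contacts, with 36 reads or fewer, have wide bars.

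The other sites of Pax7 are 2 intergenic fragments on the opposite side of the bait from each other, and neither showed a decrease beyond counting error. The fragment at chr4:139681661-139682786 lies 150 kb from the bait and 28.1 kb from the TSS of the taste receptor gene Tas1r2. It had 35 reads before OHT against 32 after, and 40 in the Control library against 43 in PRC1DEG. It kept 99.9% (62.2 to 161%) and 100.4% (65.5 to 154%) of the reference level. The fragment at chr4:140404959-140406245, 573 kb away and 158 kb from the TSS of Igsf21, had 20, 14, 7 and 11 reads. This gave 76.5% (39.1 to 150%) after OHT and 147% (58.8 to 367%) in PRC1DEG cells. Over both fragments the log2 ratio was -0.13 (-0.69 to 0.43) after OHT and 0.10 (-0.46 to 0.66) in PRC1DEG cells. At PCGF2 sites the log2 ratio of Pax7 was lower than this by 0.94 after OHT, with the difference at -0.94 (-1.77 to -0.11), and in PRC1DEG cells the difference was -0.95 (-1.76 to -0.14). The PCGF2-site summits of Pax7 reached the score needed for entry only in reference libraries. The Igsf21 fragment reached it only after OHT, and the Tas1r2 fragment only in Control cells. Entry by score can thus make the difference after OHT more negative, and neither counting interval covers the way contacts entered.

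Dmbx1 had 6 other-site contacts, and 5 of them lie among or beside its PCGF2 sites. Of its 10 contacts, 9 fall within 257 kb at chr4:114841052-115098475, and the remaining one is a fragment 32.4 kb from the bait. The contact at chr4:115083576-115098475 spans 31 fragments with the TSS of Pdzk1ip1, which encodes a small membrane protein that binds PDZK1. It had 140 reads before OHT against 83 after, and 94 in the Control library against 63 in PRC1DEG. It kept 64.8% (49.4 to 84.9%) and 62.6% (45.6 to 86.0%), the only other site of the 8 whose interval lay below 100%, in either comparison. Over the 284 other sites of all named baits, the interval lay below 100% at 21 after OHT and at 18 in PRC1DEG cells.

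The contact at chr4:114979295-114987967, 12 fragments with the TSS of Cmpk1, a nucleoside monophosphate kinase gene, had 39, 26, 18 and 10 reads and kept 72.9% (44.6 to 119%) and 51.9% (24.4 to 110%). The remaining 3 of this stretch are single fragments with 3 to 9 reads in each group. They lie in an intron of Stil, a gene needed for centriole duplication (chr4:115030162-115031457), and in intergenic DNA between Tal1 and Pdzk1ip1 (chr4:115074624-115075721 and chr4:115079271-115080027). They kept between 46.8 and 48.6% after OHT and between 62.3 and 93.4% in PRC1DEG cells, all with intervals that include 100%. Summed over the 5 contacts, 204 reads in untreated cells and 120 after OHT gave a log2 ratio of -0.64 (-0.96 to -0.31), and 126 in Control and 84 in PRC1DEG cells gave -0.68 (-1.08 to -0.29). The summit of each of these 5 scored 5 or more in untreated cells and in no other group, so they may have entered the table through the library where they were high, which favours a decrease after OHT and also bears on any value centred on them.

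The fragment near the Dmbx1 bait, at chr4:115907186-115907928, is intergenic and 16.5 kb from the TSS of 6430628N08Rik. It had 58 reads before OHT against 46 after, and 62 in the Control library against 75 in PRC1DEG. The level was 86.7% (59.0 to 127%) of untreated after OHT and 113% (80.9 to 158%) of Control in PRC1DEG cells. Over all 6 other sites the log2 ratio was -0.53 (-0.81 to -0.25) after OHT and -0.34 (-0.64 to -0.04) in PRC1DEG cells. The PCGF2 sites of Dmbx1 lay below these, with differences of -0.74 (-1.08 to -0.41) and -1.65 (-2.02 to -1.27). Both intervals leave out the way contacts entered the table. Centred on the median of these 6 sites, the log2 ratio at PCGF2 sites was -0.49 after OHT in place of -1.27. The table marks only sites that hold both RING1B and PCGF2, so RING1B alone at these 6 sites was not tested.

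**Figure D3:**
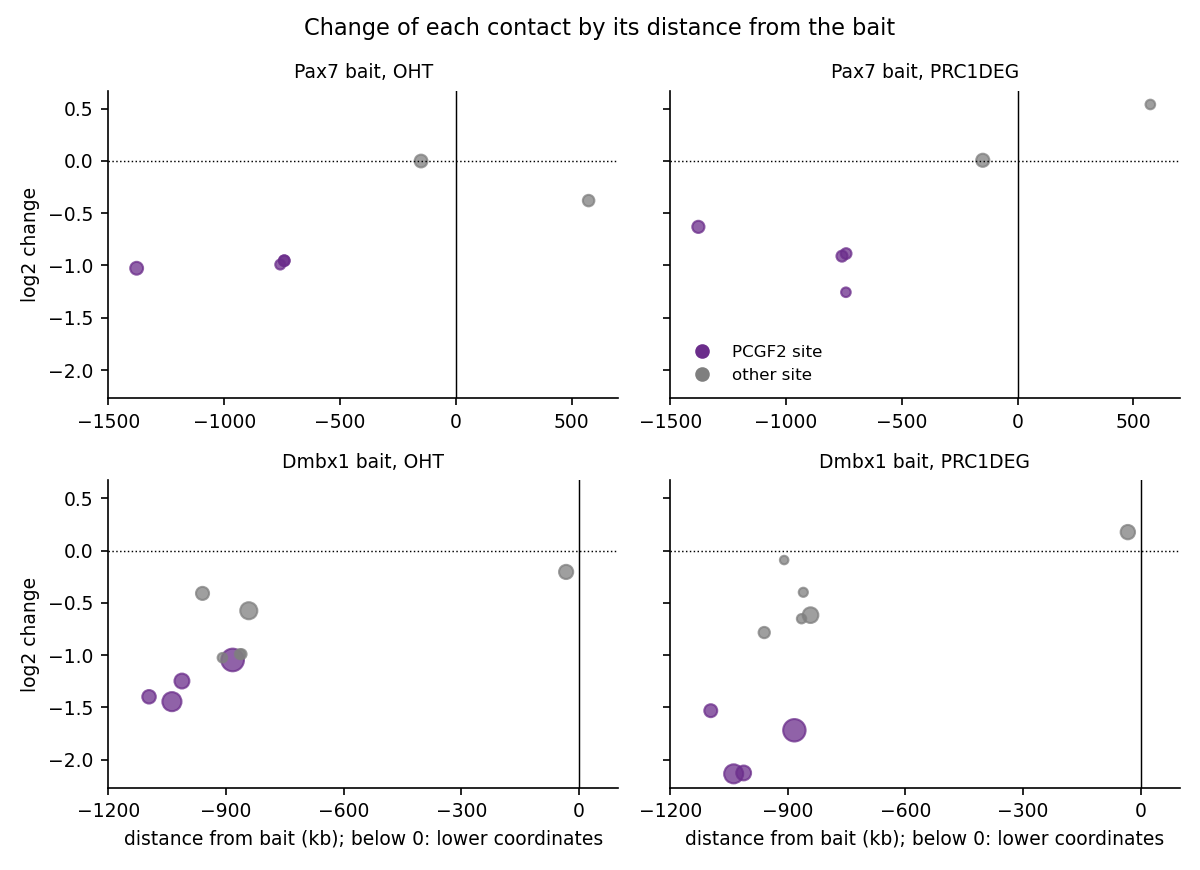
Log2 change of each contact (with pseudocount) by its signed distance from the bait in kb, for both baits and both comparisons; purple marks PCGF2 sites, grey other sites, and a larger point has more reads in the reference library. The grey points of Dmbx1 that lie between 842 and 960 kb from the bait sit below 0, beside the purple points, while the fragment 32.4 kb away lies near 0.

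CHiCAGO scores, which weigh the reads on a fragment against those expected at its distance from the bait, showed the same order. They rest on the same reads and also chose the contacts, so they are not separate evidence of a decrease. The median over the 4 PCGF2 sites of Pax7 of the mean score per fragment was 5.39 before OHT and 0.857 after, and stood at 4.46 in the Control library against 0.737 in PRC1DEG. For Dmbx1 these were 4.92 and 0.952, and 4.06 and 0. A summit score of 5 or more was counted as a call. In untreated cells 7 of the 8 contacts at PCGF2 sites were called, 3 of Pax7 and 4 of Dmbx1 (background 66.2% of the 130 and 63.3% of the 414), and 1 after OHT (11.5 and 30.0%). In Control cells 6 of 8 were called (53.1 and 23.4%), and none in PRC1DEG cells, 0 of 8 (2.31 and 7.97%). The contact still called after OHT was that with Tal1.

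The summit score at Tal1 was 12.6 before OHT and 7.03 after, and 27.7 in the Control library against 0.0459 in PRC1DEG. At Foxd2 it was 14.5, 3.90, 13.3 and 0, and at Foxe3 10.5, 1.25, 5.20 and 0. The Gm12830 contact scored 6.17, 1.34, 4.50 and 0, so it was called in untreated cells alone. The Tal1 score was thus the highest in Control cells and the Foxd2 score in untreated cells. For Pax7 the Camk2n1 contact scored 9.10, 1.47, 7.81 and 0. The Htr6 fragment scored 4.11, 0.738, 8.58 and 1.56, and was called in Control cells alone. The Nbl1 fragments scored 6.67, 0.976, 1.21 and 0 and, for the second, 6.66, 2.03, 6.66 and 0.810. All 8 contacts were called in at least 1 reference group and 5 in both. Since a contact entered the table because some fragment of it scored 5 or more somewhere, being called somewhere is not a finding.

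Among the other sites, the scores of Dmbx1 were also lower after OHT at the 5 distal contacts, whereas those of both Pax7 fragments and of the near Dmbx1 fragment had no common order. The Igsf21 fragment of Pax7 scored 3.80 before OHT and 6.02 after, 0.409 in the Control library and 1.31 in PRC1DEG, and was called after OHT alone. The Tas1r2 fragment scored 4.77, 2.80, 5.06 and 3.85. For Dmbx1, 5 of 6 other sites were called in untreated cells, with scores from 5.20 to 7.03, and none of the 5 in another group. After OHT these 5 scored from 1.16 to 2.21, and in Control cells, at 0 to 1.97, they were already low, beside 0 in PRC1DEG cells. The fragment nearest the Dmbx1 bait scored 3.50, 3.29, 2.88 and 5.02, and was called in PRC1DEG cells alone. Calls in untreated cells were common among the 284 other sites of all named baits, at 176. The OHT library had 109 such calls, the Control library 28 and the PRC1DEG library 30.

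The contacted regions differed in sequence, which the choice of contacts did not use. The classes, however, rest on RING1B and PCGF2 binding, and Polycomb target sites lie largely at CpG islands. A difference in CpG between classes is therefore not separate from how they were defined. PCGF2 sites of Pax7 had a median of 6.16 CpGs per 100 bases (2.14 to 9.23) and its other sites 1.37. For Dmbx1 the medians were 2.45 (1.80 to 3.22) and 0.973 (0.273 to 1.57). Over all named baits PCGF2 sites had a median of 2.91 and other sites 1.23, and chromosome 4 as a whole has 0.877. The contacts of both baits thus lay on the same sides as those of other baits. No test was made, since neighbouring regions are not independent.

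The large Dmbx1 regions hold their CpGs in parts. In the summit fragment the density was 9.82 at Tal1, 7.66 at Gm12830 and 4.38 at Foxd2, but 0.838 at Foxe3, where the summit fragment at chr4:114926870-114928181 is poorer in CpG than the region as a whole (3.22). The printed stretch from Foxd2 lies in the summit fragment, chr4:114900588-114903395, and not at the TSS of Foxd2. In the RefSeq promoters of 300 bases, of which 32851 had a sequence, the Dmbx1 promoter held 30 CpGs, a number reached by 11.7% of promoters, and the Pax7 promoter 17, reached by 31.4%. Among genes nearest to contacts at PCGF2 sites, Nbl1 held 43, reached by 2.61%, although its contacted fragments are intronic. The rest with a listed promoter held 29 and 10 (Htr6), 26 (Foxd2), 22 (Gm12830), 11 and 22 (Tal1) and 10 (Foxe3). Genes nearest to other sites alone held 26 (Igsf21), 23 (Cmpk1), 23 (6430628N08Rik), 8 (Tas1r2) and 3 (Pdzk1ip1), so the classes overlap. The median over all promoters was 7.

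**Figure D4:**
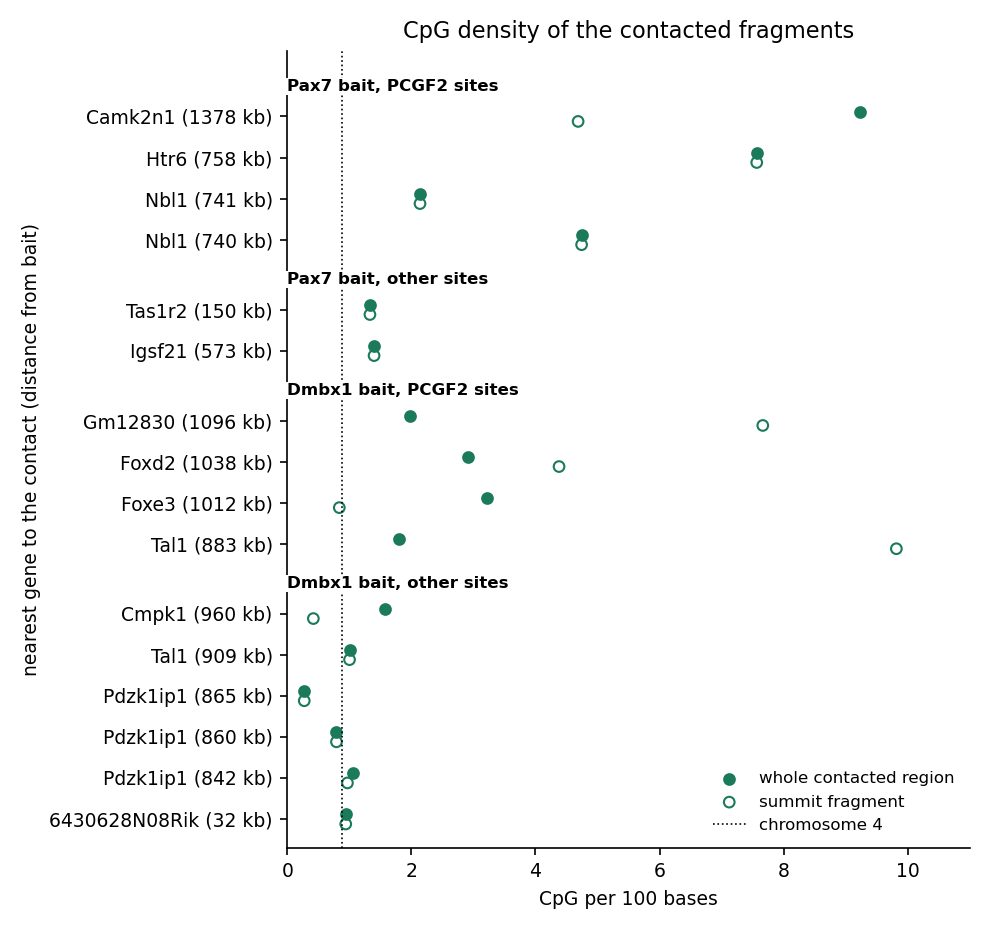
CpG per 100 bases (GRCm38) in the whole region (filled) and the summit fragment (open) of the 16 contacts, grouped by bait and class, with chromosome 4 as the dotted line. The regions at PCGF2 sites lie between 1.80 and 9.23 and those at other sites between 0.273 and 1.57; the summit fragment at Foxe3, at 0.838, is the only open point of a PCGF2 site near the line.

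Of a list of 26 developmental regulators on chromosome 4, Foxd2, Foxe3 and Tal1 had a TSS within 5 kb of 3 of the 4 Dmbx1 contacts at PCGF2 sites, and 0 of the list lay so near to a contact of Pax7 or to any other site. The list was chosen with earlier results of these data known. The 3 Dmbx1 regions are 5800 to 27971 bp wide and lie within 1 stretch, whereas those of Pax7 are 489 to 2037 bp wide, so the counts are a description and not a difference between the baits. No contact held the fragment of another named bait, and 0 regions were contacted by both baits. Of a second list of 19 canonical PRC1 and paired-type genes, 1 is on chromosome 4, and 0 were near a contact.

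Among the 22 named baits with PCGF2 sites, ordered from the most negative log2 ratio, Dmbx1 was the sixth after OHT (rank 6) and at rank 9 in PRC1DEG cells, and Pax7 was at rank 9 and rank 18. All 22 baits had ratios below 0 after OHT. Counting intervals of neighbours in this order overlap, and those of Pax7 are wide. The third named bait of chromosome 4, Hcrtr1, which encodes an orexin receptor, lies between both baits and had 1 contact at a PCGF2 site of 15. That contact had a log2 ratio of -0.28 in both comparisons, with intervals from -0.91 to 0.36 after OHT and from -0.91 to 0.35 in PRC1DEG cells. Dmbx1 lay below Hcrtr1 beyond counting error, with differences of -0.997 (-1.67 to -0.33) after OHT and -1.71 (-2.38 to -1.03) in PRC1DEG cells. For Pax7 the differences of -0.79 (-1.68 to 0.09) and -0.57 (-1.43 to 0.29) had intervals that include 0.

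**Figure D5:**
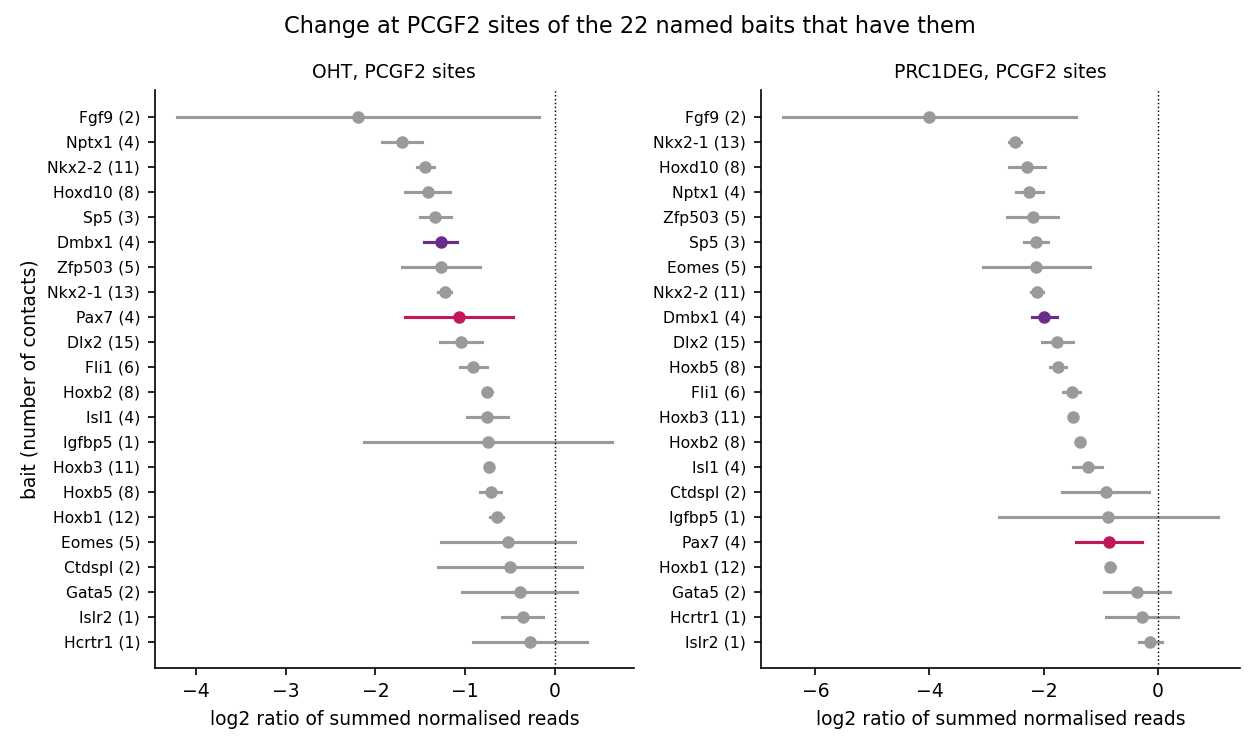
Log2 ratio of normalised reads summed over PCGF2 sites for the 22 named baits that have them, with the number of contacts in brackets and 95% Wilson intervals for counting error as bars, after OHT (left) and in PRC1DEG cells (right). Dmbx1 (purple) stands at rank 6 and rank 9, and Pax7 (pink), with its wide bar, at rank 9 and rank 18.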

How the data were processed

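CaptureC was carried out on mouse ESCs, 12 samples in 4 groups taken from the labels. The authors aligned reads to mm10 with Bowtie2 (tools and build per the submitters' processing notes), obtained weighted read counts and scores with CHiCAGO from merged replicates, kept fragments that scored 5 or more somewhere and per their methods merged those fewer than 10 DpnII fragments apart, although the adjacent Nbl1 fragments are separate entries. The deposited signal values are weighted reads normalised to the reads on captured promoters and the number of promoters, and the deposited score values are CHiCAGO scores, both summed over the fragments of a contact and also given for its summit. They were divided by the number of fragments. The value of 1 weighted read was recovered from the smallest steps, in each library at 0.00112 (untreated), 0.00122 (OHT), 0.00159 (Control) and 0.00149 (PRC1DEG) for both baits. The auxin libraries hold a second step size for some other baits, and the cause was not tested.

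Summed changes are log2 ratios of normalised reads with 95% Wilson intervals. Changes of single contacts add 0.000350 as pseudocount, the lowest value above 0, and are smaller than the percentages for low values. Intervals of differences add the variances of the log ratios. All intervals treat weighted reads as counts and cover counting error only, since the replicates of a group are pooled. No molecular identifiers are described in the sources used here. No filter on low values was used, so all 16 contacts are given. The contacts, gene lists and comparisons were chosen with earlier results of these data known. Named were all contacts of both baits. Per-replicate values were not analysed here, and 0 columns of samples outside the series were present. All 24 bait fragments began with the DpnII site and 24 left and 24 right oligonucleotides were found in GRCm38. Genes come from protein-coding GENCODE M21 basic transcripts. Python 3.11.15, numpy 2.4.6, pandas 2.3.3, pysam 0.24.0 and matplotlib 3.10.9 were used. Alternatives varied the pseudocount, read filter, weighting, centring, contacts included and score threshold.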

Additional observations from a re-analysis of the deposited data

How the results depend on the processing

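No paired analysis was possible because each column of the table used here holds 3 pooled replicates, and for the same reason no replicate could be left out. Per-replicate values were not analysed here. Of 148 alternative values, 125 stayed within the counting interval or range of the reported one (1.5 times for counts, ranks and CpG densities) and 23 moved. Some of the 125 could not move. All PCGF2 sites of both baits lie over 100 kb away, so that limit removed none. No contact had fewer than 3 reads, so a floor of 3 reads changed nothing. Centring on all named baits cancels in Dmbx1 minus Pax7. The 125 therefore overstate how stable the values are. Of all 148, 3 had the opposite sign, each for a difference whose interval includes 0. Dmbx1 minus Pax7 after OHT was 0.39 when centred on own other sites, and PRC1DEG minus OHT for Pax7 was -0.04 when centred on other sites of all named baits and -0.25 on its own. With a pseudocount 10 times larger, the median change of the Dmbx1 contacts at PCGF2 sites was -0.75 after OHT and -1.19 in PRC1DEG cells, and that of its other sites after OHT was -0.50. With at least 10 reads in the reference library, the latter was -0.41. Centred on its own other sites, Dmbx1 at PCGF2 sites had a log2 ratio of -0.49 after OHT (median -0.54) and -1.48 in PRC1DEG cells (median -1.41), and Dmbx1 minus Pax7 in PRC1DEG cells was -0.35. Without the contact at Tal1, which has the most reads, Dmbx1 was at -1.53 and -2.24. Its other sites within 100 kb of a PCGF2 site were at -0.68 in PRC1DEG cells, a choice made after seeing the data, as were the alternatives for the differences, ranks and CpG densities. At summit fragments the median scores of Dmbx1 were 11.6 untreated, 2.62 after OHT and 9.27 in Control cells, and the median CpG density at its PCGF2 sites was 6.02 per 100 bases. At a score of 10, Pax7 had 0 calls in untreated and 0 in Control cells, and Dmbx1 had 0 after OHT. At a score of 3, Dmbx1 had 2 calls after OHT. By the mean score per fragment, Dmbx1 had 2 calls untreated, 0 after OHT and 1 in Control cells. The cause of these shifts was not tested beyond what each setting changes by construction. Depth limits Pax7 more than Dmbx1, with 31 to 71 reads in a library at its PCGF2 sites.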

Other observations

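Other-site contacts that lie close to a PCGF2-site contact of the same bait were set apart after the values of Dmbx1 had been seen, so these are descriptions. Over the 22 named baits with PCGF2 sites, 23 other-site contacts of 11 baits lay within 20 kb of one. Their log2 changes had medians of -0.51 with OHT and -0.21 in PRC1DEG cells, and that of the 246 contacts farther away was -0.13 and 0.11. Without Dmbx1, 19 contacts of 10 baits remained, with medians of -0.41 and -0.19. Without the Hox baits, 17 contacts of 7 baits had medians of -0.51 and -0.40. Without Dmbx1 and the Hox baits, 13 contacts of 6 baits had medians of -0.28 and -0.21. The 158 farther away then had -0.18 and 0.11, so the medians after OHT lay close together. The order depended on the limit. At 50 kb the 38 contacts within it had medians of -0.13 after OHT and -0.09 in PRC1DEG cells, and the 231 beyond it -0.16 and 0.11. Contacts within 20 kb rested on a median of 17 reads in untreated and 13 in Control cells. Contacts of 1 bait share its libraries and are not independent. The way these contacts entered the table by score was not taken into account.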
